A study of Mus musculus with 23 samples.

Results

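The 10 genes described here encode general, widely expressed enzymes of glycolysis: the hexokinases Hk1 and Hk2, the isomerase Gpi1, the phosphofructokinase subunits Pfkl and Pfkp, the aldolase Aldoa, the triosephosphate isomerase Tpi1, the phosphoglycerate kinase Pgk1, the pyruvate kinase Pkm and the lactate dehydrogenase subunit Ldha. They were taken by name from the 27466 genes of a table of read counts, and each has 1 row there. Their levels were no criterion of the choice, but it was made with earlier results of these data known. RNA was sequenced from whole testes of CD-1 male mice at 4 ages, in days postpartum (dpp), of which the youngest was 6.5 dpp and the later ones 10.5, 22.5, and lastly 36.5 dpp, and from explants of 6.5 dpp testes kept for 4, 16 or 30 days (D4, D16, D30) at a gas-liquid interphase, in medium with serum replacement and retinol. By age, D4 corresponds to 10.5 dpp, D16 to 22.5 dpp and D30 to 36.5 dpp. One list of in vivo ages in the study's methods has a younger age in the place of 10.5 dpp, and the age used here is that of the library labels. The 6.5 dpp group held 4 libraries, 1 fresh and 3 thawed after controlled slow freezing (CSF). The 10.5 dpp, 22.5 dpp and D4 groups each held 3 fresh libraries, the 36.5 dpp and D16 groups 2 each, and the D30 group 3 fresh libraries and 1 CSF library. A cultured library was made from pooled explants after their necrotic centre had been cut away, so that culture values describe the surviving rim, and an in vivo library from intact testis. Whole tissue was measured, so a smaller share of cells of a type and less RNA per cell cannot be told apart.

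Glycolysis turns glucose into pyruvate with a net gain of ATP, and lactate dehydrogenase links pyruvate to lactate. Hexokinase traps glucose in the cell, phosphofructokinase makes the committing step, and phosphoglycerate kinase and pyruvate kinase yield ATP. In the testis, Sertoli cells take up glucose and release lactate, which spermatocytes and spermatids burn. Meiotic and haploid germ cells also switch on isozymes of their own, among them Pgk2, Ldhc and Gapdhs, and spermatids carry a germ cell form of hexokinase from the Hk1 locus. In many other cells low oxygen raises glycolytic genes through the factor HIF, which binds DNA at a short core.

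Each library held 28351546 to 69029328 reads assigned to a gene. Levels are in CPM, a gene's reads scaled to a common library total of 1e6. The column labelled 6.5 dpp fresh replicate 3 holds the same counts as replicate 2 for every gene and was left out. Replicate 1 of that group was also left out, since over all genes its rank correlation was 0.986 with a D16 library and 0.909 with 6.5 dpp fresh replicate 2, and its Ldhc level was 1862 CPM against 1.98 to 2.47 CPM in the 4 other libraries of that age. The 21 libraries that remain are used throughout. A gene is called higher or lower at an adjusted p under 0.05 in edgeR's quasi-likelihood test over 19255 genes, and fold changes are those of that fit, in which libraries are scaled by TMM factors. Other scalings tried were RLE factors and the library total alone. Cultured replicates were separate pools of explants, and where nothing says that libraries came from separate animals the p-values measure only the spread between these libraries.

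The genes lie on these chromosomes of GRCm38: Hk1 (NCBI gene 15275) at chr10:62268855-62379908 and Pfkl (NCBI gene 18641) at chr10:77986947-78010083 on the minus strand, Hk2 (NCBI gene 15277) at chr6:82725025-82774454 and Tpi1 (NCBI gene 21991) at chr6:124810586-124814296, also minus, Gpi1 (NCBI gene 14751) at chr7:34201330-34230336 and Aldoa (NCBI gene 11674) at chr7:126795234-126800751, minus, Ldha (NCBI gene 16828) at chr7:46841475-46855627, plus, Pfkp (NCBI gene 56421) at chr13:6579768-6648777, minus, Pkm (NCBI gene 18746) at chr9:59656368-59679375, plus, and Pgk1 (NCBI gene 18655) at chrX:106187100-106203699, plus. Reads were 50 bases long, and a run of that length that another gene's transcript also holds cannot be assigned by sequence. Of the 50-base runs of the longest coding transcript, 68% are shared for Pgk1, nearly all with the processed pseudogene Pgk1-rs7, 34.4% for Pkm, 25.3% for Gpi1, 16.6% for Ldha, 13.5% for Aldoa and 7.51% for Tpi1. Pfkp shares 17.1% with transcripts of its neighbour Pitrm1, Hk1 shares 2.55% with the antisense gene Hk1os (the strand setting of the counting is not given in the sources used here), Pfkl shares 0.0543%, and Hk2 shares none. The Pgk1 counts are the lowest of the list, at 0.566 to 10.8 CPM, so its level is uncertain in absolute terms. The part of the shared runs in the differences given below was not tested.

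Since several of these enzymes are textbook HIF targets, the core letters of its site were sought in the promoters listed by RefSeq for GRCm38.p6 (250 bases before to 50 after each start), where the 10 genes have 15 starts. ACGTG or GCGTG, on either strand and with overlapping matches counted, stood at 10 of these 15 starts and at 1 or more starts of 8 of the 10 genes, and in 43.8% of all 32851 promoters of this length. The letters ACGTG alone stood at 7 starts against 19.6% of all promoters, and GCGTG at 5 starts against 32.4%. The windows of starts 2 and 3 of Aldoa overlap and hold the same ACGTG match, which is thus counted at both starts. TGACGTCA, the full site of the CREB and CREM factors, was found at 1 start, of Ldha, and in 1.79% of all promoters. A match describes the letters and shows no binding. The 250 bases before the start are printed for 4 genes on which the results below turn: Pfkl and Pgk1, which were higher at every culture stage, Ldha, which changed direction over culture and has most matches, and Gpi1, which has none. Capitals mark the core ACGTG, which reads CACGT on the opposite strand, or the core written GCGTG, which there reads CACGC. Overlapping matches form longer runs of capitals.
Pfkl (chr10:78009808-78010057, minus strand): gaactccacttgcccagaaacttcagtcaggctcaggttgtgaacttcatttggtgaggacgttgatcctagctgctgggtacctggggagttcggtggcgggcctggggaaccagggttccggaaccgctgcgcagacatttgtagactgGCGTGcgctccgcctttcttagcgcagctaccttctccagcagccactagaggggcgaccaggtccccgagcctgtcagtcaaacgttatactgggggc
Pgk1 (chrX:106186850-106187099, plus strand): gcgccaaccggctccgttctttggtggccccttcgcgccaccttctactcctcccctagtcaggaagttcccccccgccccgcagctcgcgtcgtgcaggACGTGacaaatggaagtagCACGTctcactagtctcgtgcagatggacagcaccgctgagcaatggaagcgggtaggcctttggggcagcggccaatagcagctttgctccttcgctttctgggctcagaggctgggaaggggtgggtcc
Ldha, upstream start (chr7:46845554-46845803, plus strand): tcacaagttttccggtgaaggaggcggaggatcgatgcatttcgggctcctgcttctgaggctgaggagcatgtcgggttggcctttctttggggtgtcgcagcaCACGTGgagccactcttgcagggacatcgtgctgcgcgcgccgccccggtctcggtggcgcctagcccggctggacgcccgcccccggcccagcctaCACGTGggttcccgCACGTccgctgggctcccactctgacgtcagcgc
Gpi1 (chr7:34230337-34230586, minus strand): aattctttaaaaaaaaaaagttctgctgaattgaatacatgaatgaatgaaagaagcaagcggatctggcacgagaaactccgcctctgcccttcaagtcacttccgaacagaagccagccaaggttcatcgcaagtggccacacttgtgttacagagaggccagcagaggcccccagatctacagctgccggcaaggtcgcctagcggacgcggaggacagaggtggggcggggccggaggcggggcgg

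In the in vivo testis the 10 genes did not follow 1 course through the first wave of spermatogenesis. Between 6.5 and 10.5 dpp no member was called, against 1.14% of all genes tested, and the 3 smallest unadjusted p-values, 0.0179 for Tpi1, 0.0195 for Ldha and 0.0342 for Pgk1, all belonged to lower values at 10.5 dpp. For these 3 genes the highest 6.5 dpp library was CSF replicate 3 (188, 236 and 8.82 CPM). Their log2 values of -0.56, -0.90 and -0.83 shrank to -0.37, -0.60 and -0.41 at the most when 1 library was left out. From 10.5 to 22.5 dpp, a step over which 10 of 10 spermatocyte and 9 of 10 spermatid markers also rose, 3 of 10 members rose and 3 fell, against 33.6% and 27.9% of all genes. From 22.5 to 36.5 dpp, over which 10 of 10 spermatid markers rose, 4 rose and 2 fell, against 23.3% and 27.5%. With 10 members, no statement on the list as a whole is drawn from these shares.

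The first reaction is carried by the hexokinases, which moved apart with age. Hk1 stood at 82.3, 74.9 and 88 CPM at 10.5 dpp, 266, 153 and 305 CPM at 22.5 dpp and 1193 and 2607 CPM at 36.5 dpp. The 3 ages did not overlap, and Hk1 was 3.69-fold higher (log2 1.88, SE 0.44, adjusted p = 0.00118) at 22.5 than at 10.5 dpp and again 11.1-fold higher (log2 3.47, SE 0.49, adjusted p = 2.62e-05) at 36.5 than at 22.5 dpp. Hk2, the hexokinase of insulin-responsive and growing tissues, went the other way, with 166, 185 and 159 CPM at 10.5 dpp, 61.9, 122 and 66.6 CPM at 22.5 dpp and 18.1 and 37.1 CPM at 36.5 dpp. It was not called over the earlier step (log2 -0.75, 95% interval -1.45 to -0.06, adjusted p = 0.0562). It was called lower there with library size alone, the replicate block, fresh libraries, a fit of these groups alone and when any 1 of 6 libraries was left out (adjusted p = 0.0117 to 0.0492 over these fits). Over the later step it was 2.08-fold lower (log2 -1.06, SE 0.38, adjusted p = 0.0283). That later call was lost without 22.5 dpp replicate 2 or without 36.5 dpp replicate 1 (log2 -0.77 and -0.62, adjusted p = 0.126 and 0.292), and with RLE factors (log2 -0.86, adjusted p = 0.0606) or a fit of these groups alone (log2 -0.98, adjusted p = 0.0742). In the same comparison the median log2 fold change of all genes was -0.126 with TMM factors, 0.0668 with RLE factors and -0.635 with library size alone, and 45.9%, 56% and 27.9% of the called genes were higher.

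The phosphofructokinase subunits of the list crossed in the same way. The subunit Pfkm is not a member, and its levels are given with the isozyme shares. Pfkp, the platelet-type subunit, rose from 13.5, 11.2 and 14.4 CPM at 10.5 dpp to 305, 174 and 292 CPM at 22.5 dpp, 24.6-fold higher (log2 4.62, SE 0.38, adjusted p = 2.07e-08), the steepest rise of any member between these ages, and stood at 137 and 238 CPM at 36.5 dpp (log2 0.04, 95% interval -0.74 to 0.81, adjusted p = 0.946 against 22.5 dpp). Pfkl, the liver-type subunit, held 98.8, 121 and 106, then 53.1, 74.3 and 67.5, then 14.5 and 24.2 CPM at the same ages. Its groups did not overlap. The earlier step was not called (log2 -0.45, adjusted p = 0.136), except with library size alone (adjusted p = 0.029) and in a fit of these groups alone (adjusted p = 0.0149). The later step was called, 2.34-fold lower (log2 -1.23, SE 0.30, adjusted p = 0.00284), a call lost without 36.5 dpp replicate 1 (log2 -0.89, adjusted p = 0.0663).

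At the end of the pathway, Ldha, which interconverts pyruvate and lactate, rose from 81.1, 105 and 90.7 CPM at 10.5 dpp to 857, 505 and 959 CPM at 22.5 dpp, 10.5-fold higher (log2 3.39, SE 0.40, adjusted p = 1.49e-06), with no overlap. At 36.5 dpp it read 1043 and 866 CPM and was not called against 22.5 dpp (log2 0.79, 95% interval -0.06 to 1.64, adjusted p = 0.113). Pkm, which makes pyruvate, fell over the earlier step from 368, 382 and 378 to 136, 223 and 180.0 CPM (log2 -0.79, SE 0.20, adjusted p = 0.00212). It was not called over the later (log2 0.52, 95% interval 0.07 to 0.97, adjusted p = 0.0526), and was called higher there with RLE factors, DESeq2, the replicate block and when any 1 of 5 libraries was left out (adjusted p = 0.00345 to 0.0465 over these fits). Gpi1, which converts glucose 6-phosphate, and Aldoa, which splits the hexose, first fell and then rose. Gpi1 read 202, 211 and 224, then 67.3, 90.5 and 70.9, then 319 and 329 CPM at the same ages, 2.29-fold lower (log2 -1.19, SE 0.15, adjusted p = 3.02e-06) and then 6.09-fold higher (log2 2.61, SE 0.17, adjusted p = 7.97e-09). Aldoa was 1.73-fold lower (log2 -0.79, SE 0.16, adjusted p = 0.000379) and then 2.08-fold higher (log2 1.06, SE 0.18, adjusted p = 0.000135). Tpi1, which interconverts the triose phosphates, was not called over the earlier step (log2 0.49, 95% interval 0.02 to 0.97, adjusted p = 0.0675). It was called higher there with RLE factors, DESeq2, a fit of these groups alone and when either of 2 libraries was left out (adjusted p = 0.024 to 0.0482 over these fits). Over the later step it was 3.48-fold higher (log2 1.80, SE 0.25, adjusted p = 2.43e-05) at 36.5 dpp, at 302 and 294 CPM.

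Set per kilobase of merged exons, Aldoa was the highest member at 6.5 and 10.5 dpp (164 ± 14.2 and 169.8 ± 10.6 CPM per kb, SD, n = 4 and 3), followed by Pkm (73.1 ± 10.4 and 75.2 ± 1.46). This scaling makes genes comparable only roughly. Merged exons span 13401 bases for Pfkp and 8532 for Hk1, while their coding transcripts used above have 4145 and 4278. Shared 50-base runs are not allowed for either, and both limits hold for the per-kilobase shares below. At 22.5 dpp Ldha led with 234 ± 72 CPM per kb (n = 3), and at 36.5 dpp Ldha with 288 ± 37.9 and Hk1 with 223 ± 117 (n = 2) stood above Aldoa with 116 ± 21.9. In culture Aldoa led at D4 (207 ± 32.3, n = 3) and Ldha at D16 and D30 (164 ± 85.8 and 176 ± 55.9, n = 2 and 4). Across all 7 groups the means of Hk1 spanned 28-fold, those of Pfkp 22.1-fold and those of Pfkl 20.1-fold, while Aldoa spanned 2.60-fold and Tpi1 2.80-fold.

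**Figure D1:**
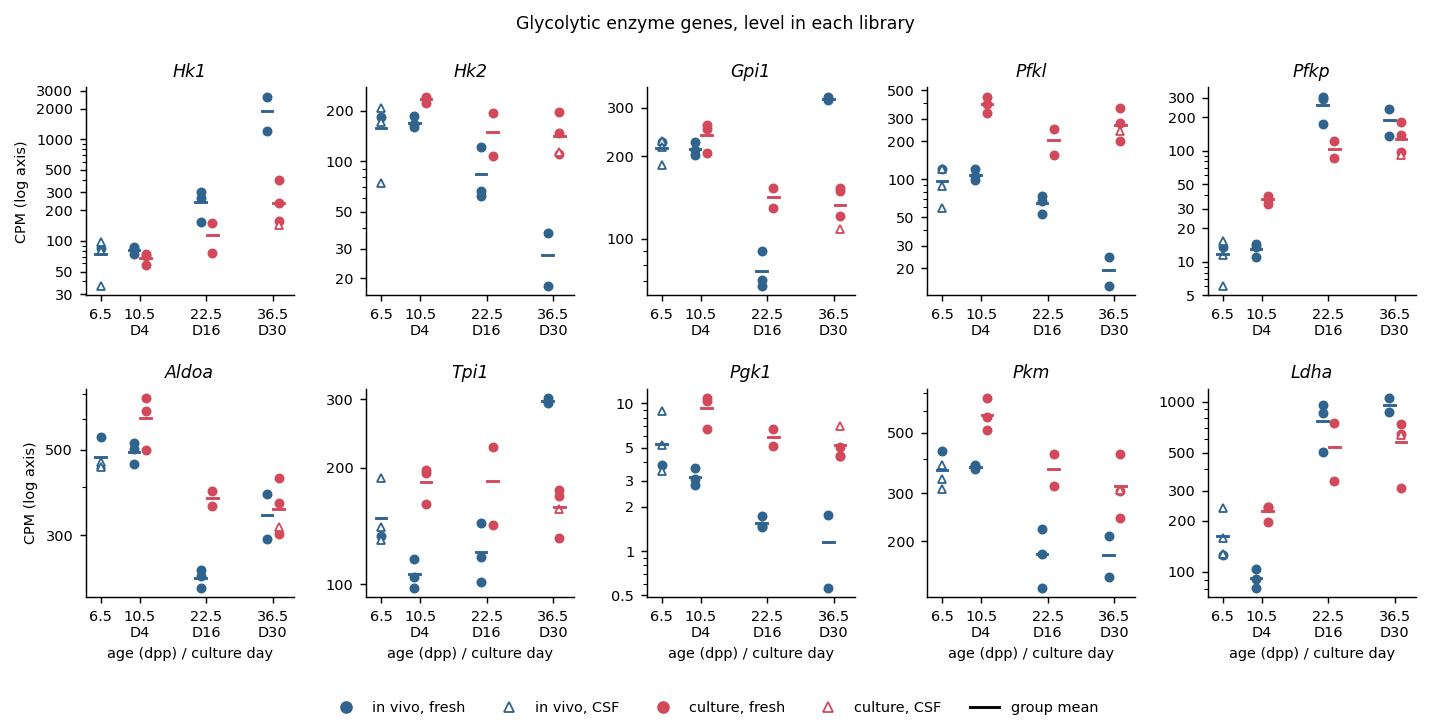
Level of each of the 10 genes in every library, in CPM on a log axis, by age of the in vivo testis (blue) and day of culture (red) at matched age; circles are fresh and triangles CSF libraries, and bars are group means. Pfkl, Pgk1 and Pkm sit higher in culture at all 3 ages by CPM, while Hk1, Gpi1 and Tpi1 sit far above culture at 36.5 dpp.

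Ordered over all 7 groups (mean ± SD in CPM), neighbouring groups mostly overlapped. For Hk1 the order was 36.5 dpp (1899.8 ± 1000.1), 22.5 dpp (242 ± 79), D30 (234 ± 117), D16 (114 ± 53), 10.5 dpp (81.7 ± 6.58), 6.5 dpp (74.9 ± 26.8) and D4 (67.9 ± 8.17), and among neighbours only 36.5 dpp from 22.5 dpp was separate. For Pfkl it was D4 (389 ± 56.7), D30 (269.7 ± 71.5), D16 (202 ± 68.3), 10.5 dpp (108 ± 11.2), 6.5 dpp (97 ± 29.2), 22.5 dpp (64.9 ± 10.8) and 36.5 dpp (19.3 ± 6.90), with D16 from 10.5 dpp and 22.5 dpp from 36.5 dpp separate. For this pair the top and the bottom of the order are exchanged, since 36.5 dpp was the highest group of Hk1 and the lowest of Pfkl.

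Hk2 ran from 235 ± 10.5 at D4 to 27.6 ± 13.5 at 36.5 dpp, with D4 from 10.5 dpp and 22.5 dpp from 36.5 dpp separate among neighbours. Gpi1 ran from 324 ± 6.60 at 36.5 dpp to 76.2 ± 12.5 at 22.5 dpp, with 36.5 dpp from D4, 10.5 dpp from D16 and D30 from 22.5 dpp separate. Pfkp ran from 257 ± 72.1 at 22.5 dpp to 11.6 ± 4.01 at 6.5 dpp, with D16 from D4 and D4 from 10.5 dpp separate. D4 was the highest group of Hk2, Pfkl, Aldoa, Pgk1 and Pkm by its mean, and 36.5 dpp that of Hk1, Gpi1, Tpi1 and Ldha. Aldoa ran from 604 ± 94.2 at D4 to 232 ± 12.1 at 22.5 dpp, with 6.5 dpp from D16 and 36.5 dpp from 22.5 dpp separate. Pgk1 ran from 9.30 ± 2.26 at D4 to 1.16 ± 0.839 at 36.5 dpp, with D30 from 10.5 dpp and 10.5 dpp from 22.5 dpp separate. Pkm ran from 584 ± 79.2 at D4 to 179 ± 44 at 36.5 dpp, with D4 from 10.5 dpp and D30 from 22.5 dpp separate. The lowest group of the remaining pair was 10.5 dpp. Ldha ran from 954 ± 125 at 36.5 dpp to 92.2 ± 11.9 at 10.5 dpp, with D16 from D4 and 6.5 dpp from 10.5 dpp separate, and Tpi1 from 298 ± 5.62 at 36.5 dpp to 106 ± 9.08 at 10.5 dpp, with only 36.5 dpp from D16 separate.

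The comparison of D4 with 10.5 dpp asks what 4 days in culture did to the explants relative to testes of the same age. At D4, 6 of 10 members were higher and none was lower, against 4.92% and 3.18% of all genes called in those directions. The median log2 fold change was 0.80 over the members and -0.006 over all genes tested. The largest difference was in Pfkl, with 332, 389 and 446 CPM at D4 and 98.8, 121 and 106 CPM at 10.5 dpp. No library overlapped, and Pfkl was 3.81-fold higher (log2 1.93, SE 0.27, adjusted p = 0.000121). Pgk1, which makes ATP from bisphosphoglycerate, read 6.71, 10.8 and 10.4 CPM against 2.78, 3.67 and 3.07 CPM, also without overlap and 3.11-fold higher (log2 1.64, SE 0.39, adjusted p = 0.0123). Pfkp was 2.97-fold higher (log2 1.57, SE 0.34, adjusted p = 0.00652), from 33.2, 38.9 and 37 CPM at D4 and 13.5, 11.2 and 14.4 CPM at 10.5 dpp. Its libraries were likewise separate, at a level that remained low beside Pfkl.

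Ldha was 2.61-fold higher (log2 1.38, SE 0.37, adjusted p = 0.027) at D4, at 198, 241 and 241 CPM against 81.1, 105 and 90.7 CPM. Tpi1 was 1.84-fold higher (log2 0.88, SE 0.23, adjusted p = 0.0214) and Pkm 1.65-fold higher (log2 0.72, SE 0.20, adjusted p = 0.0277), and in both every D4 library lay above every 10.5 dpp library. Of the members not called, Hk2 (log2 0.55, 95% interval -0.14 to 1.25, adjusted p = 0.413), Gpi1 (log2 0.25, 95% interval -0.06 to 0.57, adjusted p = 0.399) and Aldoa (log2 0.37, 95% interval 0.04 to 0.71, adjusted p = 0.193) had positive values, while Hk1, below 10.5 dpp in every D4 library, had a negative one (log2 -0.18, 95% interval -1.07 to 0.71, adjusted p = 0.915). Pfkl and Pfkp kept their calls whichever library was left out. The call of Ldha was lost without any 1 of the 6 libraries compared (adjusted p = 0.0538 to 0.116), that of Pkm without 5 of them (all but D4 replicate 1; 0.0716 to 0.122) and with library size alone (log2 0.63, adjusted p = 0.0952), that of Tpi1 without D4 replicate 2 or 3 or 10.5 dpp replicate 1 or 3 (0.0732 to 0.0995) and that of Pgk1 without D4 replicate 2 or 10.5 dpp replicate 1 or 3 (0.052 to 0.0682), while their log2 fold changes stayed positive. With the 6.5 dpp library that was left out put back, which enters only through the shared spread, Pfkp (0.555), Ldha (0.201) and Pkm (0.0631) were not called.

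At D16 against 22.5 dpp, 5 of 10 members were higher and 1 was lower, against 14% and 11.8% of all genes. The median log2 fold change was 0.62 over the members and -0.085 over all genes. Pgk1 was 3.42-fold higher (log2 1.77, SE 0.43, adjusted p = 0.00786), with 6.71 and 5.11 CPM at D16 and 1.48, 1.73 and 1.45 CPM at 22.5 dpp. Pfkl was 2.80-fold higher (log2 1.48, SE 0.28, adjusted p = 0.00162), with 154 and 250.5 CPM and 53.1, 74.3 and 67.5 CPM. Both genes, which act before and after the aldolase step, kept culture and in vivo libraries apart. Pkm was 1.85-fold higher (log2 0.89, SE 0.21, adjusted p = 0.00788), Gpi1 1.67-fold higher (log2 0.74, SE 0.16, adjusted p = 0.00463) and Aldoa 1.44-fold higher (log2 0.53, SE 0.18, adjusted p = 0.0367), each again without overlap. The lower member was Pfkp, 2.80-fold lower (log2 -1.49, SE 0.39, adjusted p = 0.0122), with 121 and 86.1 CPM at D16 and 305, 174 and 292 CPM at 22.5 dpp.

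Some members were not called, and their D16 values lay far from each other. The D16 libraries also differed in germ cell isozymes, with 304 CPM of Pgk2 and 2842 of Ldhc in replicate 1 and 43.8 and 819 in replicate 2. The part of this in the calls was not tested. For Ldha the D16 libraries read 743 and 342 CPM against 857, 505 and 959 CPM at 22.5 dpp, which overlap, and no difference was detectable (log2 -0.68, 95% interval -1.56 to 0.19, adjusted p = 0.229). Hk1 read 151 and 76.3 against 266, 153 and 305 CPM (log2 -1.26, 95% interval -2.29 to -0.23, adjusted p = 0.0667), and was called lower with RLE factors (log2 -1.36, adjusted p = 0.0487), with DESeq2 (adjusted p = 0.0211) and without any 1 of 4 libraries (adjusted p = 0.028 to 0.0432). Hk2 (log2 0.71, 95% interval -0.06 to 1.47, adjusted p = 0.155) and Tpi1 (log2 0.45, 95% interval -0.08 to 0.97, adjusted p = 0.188) had positive values. Without D16 replicate 2, the calls of Gpi1 (adjusted p = 0.0871), Pfkl (0.0569), Pkm (0.139), Pfkp (0.168) and Aldoa (0.228) were lost, and that of Aldoa also with RLE factors (0.0802), with no filter (0.053), without D16 replicate 1 or any 22.5 dpp library (0.066 to 0.0937) and that of Pfkp without 22.5 dpp replicate 1 (0.0509). With a fit of the D16 and 22.5 dpp libraries alone, Gpi1 (0.053), Pfkp (0.0545), Pkm (0.0615) and Aldoa (0.078) were not called. Pgk1 kept its call under every alternative of scaling, filter, tool and libraries. Of all called genes 54.3% were higher with TMM factors, 43.9% with RLE factors and 68% with library size alone.

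At D30 against 36.5 dpp the list split. Of 10 members 3 were higher and 6 lower, against 32.4% and 35% of all genes, so that the share higher was near the background and the share lower above it. The median log2 fold change was -0.89 over the members and -0.031 over all genes. Pfkl and Hk1 were the members furthest from 0, in opposite directions. Pfkl read 276, 199, 366 and 238 CPM at D30, the last of these libraries being CSF, and 14.5 and 24.2 CPM at 36.5 dpp, and was 8.88-fold higher (log2 3.15, SE 0.32, adjusted p = 5.26e-07). Hk1 read 398, 237, 159 and 144 CPM at D30 and 1193 and 2607 CPM at 36.5 dpp, and was 12.5-fold lower (log2 -3.65, SE 0.44, adjusted p = 2.49e-06). The groups were wide apart in both.

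Hk2 was 3.28-fold higher (log2 1.71, SE 0.38, adjusted p = 0.000755), with 148, 110.1, 197 and 113 CPM against 18.1 and 37.1 CPM, so that the hexokinases differed from the control in opposite directions. Pgk1 was 2.92-fold higher (log2 1.55, SE 0.45, adjusted p = 0.00562), at 4.39, 5.04, 4.38 and 7.06 CPM against 1.75 and 0.566 CPM. That call rested on the lower in vivo library and was lost without 36.5 dpp replicate 2 (log2 0.93, adjusted p = 0.116). Gpi1 was 3.80-fold lower (log2 -1.93, SE 0.15, adjusted p = 4.19e-08), with 149, 121, 153 and 108 CPM against 319 and 329 CPM, and Tpi1 2.92-fold lower (log2 -1.55, SE 0.23, adjusted p = 2.01e-05), with 175, 169, 131 and 156 against 302 and 294 CPM. Ldha was 2.53-fold lower (log2 -1.34, SE 0.37, adjusted p = 0.0044), from 643, 735, 312 and 634 against 1043 and 866 CPM. None of these 3 genes overlapped between the groups, and with library size alone Ldha was not called (log2 -0.72, adjusted p = 0.0707).

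Pfkp was 2.28-fold lower (log2 -1.19, SE 0.34, adjusted p = 0.00492), although its CPM values overlapped (181, 139, 96.9 and 91.8 against 137 and 238), and the call was lost without 36.5 dpp replicate 2 (log2 -0.73, adjusted p = 0.143) or with scaling by library size alone (log2 -0.56, adjusted p = 0.139). Aldoa overlapped too, at 364, 302, 422 and 316 against 294 and 384 CPM, and was 1.51-fold lower (log2 -0.59, SE 0.17, adjusted p = 0.00442), but its direction turned with scaling by library size alone (log2 0.05, adjusted p = 0.809) and its call was lost without 36.5 dpp replicate 2 (log2 -0.38, adjusted p = 0.111) and in a fit of these groups alone (log2 -0.47, adjusted p = 0.179). Pkm was not called (log2 0.18, 95% interval -0.25 to 0.62, adjusted p = 0.447), its sign turned with RLE factors (log2 -0.07), and it was called higher with library size alone (log2 0.83, adjusted p = 0.00541). Its CPM values did not overlap, at 305, 243, 417 and 308 against 148 and 210. In this comparison the median log2 fold change of all genes was -0.03 with TMM factors, -0.29 with RLE factors and 0.604 with library size alone, and of the genes called 48% were higher with TMM, 40% with RLE factors and 65.8% with library size. Against that shift, Pfkl and Hk2 stayed higher and Hk1, Gpi1 and Tpi1 lower under each of the 3 scalings.

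**Figure D2:**
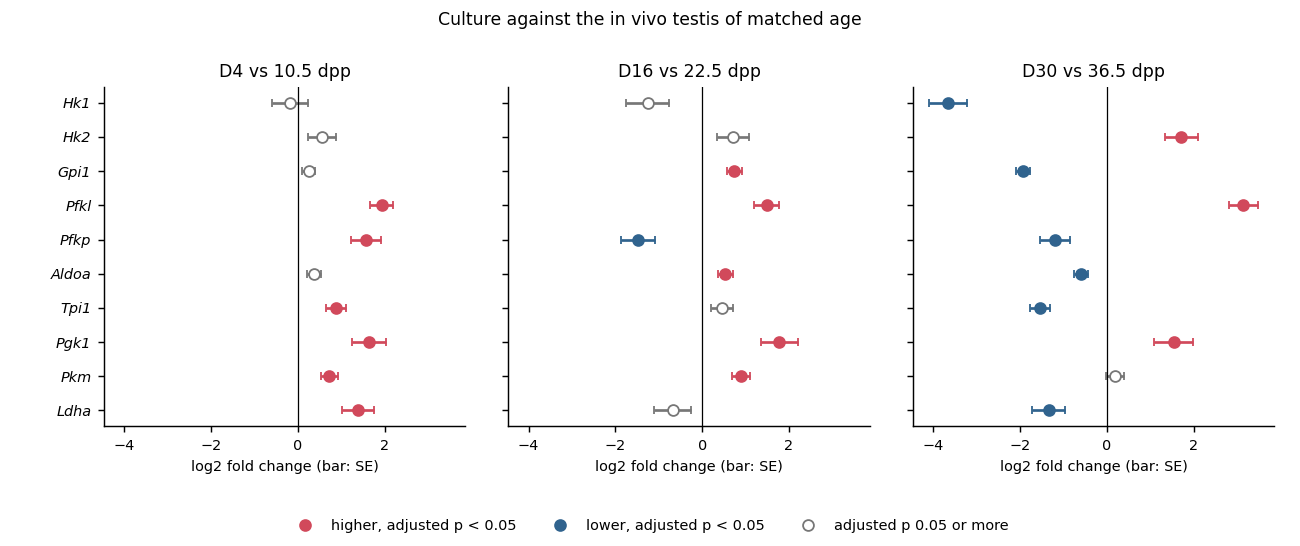
Log2 fold change of each gene between culture and the in vivo testis of matched age, with its SE, for D4, D16 and D30; filled points passed an adjusted p under 0.05 in edgeR (red higher, blue lower in culture). All 6 filled points lie to the right of 0 at D4, 5 of 6 at D16 and 3 of 9 at D30.

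Over the 3 comparisons, which share no libraries, Pfkl and Pgk1 were called higher each time. Hk2 and Pkm had positive values each time, called once and 2 times, and Hk1 had negative values each time, called once. Gpi1, Aldoa, Tpi1, Ldha and Pfkp were called in both directions, higher at an early stage and lower at a later one. Whether the culture effect itself changed was tested as a difference of contrasts. From D4 to D16, 2 members were called, both with a lower culture effect at D16, against 4.36% of all genes in that direction and 5.26% in the other: Pfkp (log2 -3.05, SE 0.52, adjusted p = 0.00181) and Ldha (log2 -2.07, SE 0.56, adjusted p = 0.0289). From D4 to D30, 6 members had a lower effect and 1 a higher, against 20.7% and 25.8% of all genes. The lower ones were Hk1 (log2 -3.46, SE 0.61, adjusted p = 0.000262), Pfkp (log2 -2.76, SE 0.48, adjusted p = 0.000227), Ldha (log2 -2.72, SE 0.53, adjusted p = 0.000565), Tpi1 (log2 -2.42, SE 0.33, adjusted p = 2.79e-05), Gpi1 (log2 -2.18, SE 0.21, adjusted p = 2.53e-06) and Aldoa (log2 -0.97, SE 0.23, adjusted p = 0.00266), and Pfkl was the higher (log2 1.22, SE 0.38, adjusted p = 0.0148). For Pgk1 the difference was log2 -0.09, 95% interval -1.29 to 1.11, adjusted p = 0.929, for Hk2 log2 1.16, 95% interval 0.13 to 2.18, adjusted p = 0.0602 and for Pkm log2 -0.54, 95% interval -1.13 to 0.05, adjusted p = 0.126. The Hk2 difference was called higher with library size alone, the replicate block, fresh libraries, a fit of these groups alone and without 36.5 dpp replicate 2 or 6.5 dpp CSF replicate 3 (adjusted p = 0.00634 to 0.0329 over these fits). That of Pkm was called lower with RLE factors, DESeq2 and without 36.5 dpp replicate 1 (adjusted p = 0.0162 to 0.0448). The Ldha call at D16 was lost without any 1 of D16 replicate 2, D4 replicate 2 or 3, 10.5 dpp replicate 1 or 3, or 22.5 dpp replicate 1 or 3 (adjusted p = 0.0577 to 0.182), and the Pfkl call at D30 without 36.5 dpp replicate 1 (log2 0.86, adjusted p = 0.115). Aldoa at D30 lost its call with library size alone (log2 -0.24, adjusted p = 0.434). With the omitted 6.5 dpp library put back, Pfkp was not called for either difference (adjusted p = 0.324 and 0.119), nor at D16 (0.387) or D30 (0.286), and Ldha not for that of D16 (0.214) nor Pfkl for that of D30 (0.078).

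Followed through culture, members were called over the steps to D4 and to D16 and not over the last. From 6.5 dpp to D4, 3 of 10 members rose and none fell, against 10.8% and 10.1% of all genes: Pfkl (4.11-fold higher, log2 2.04, SE 0.24, adjusted p = 1.02e-05), Pfkp (3.21-fold higher, log2 1.68, SE 0.31, adjusted p = 0.000847) and Pkm (1.63-fold higher, log2 0.70, SE 0.18, adjusted p = 0.0101). Pfkl stood at 119.6, 120.2, 88.9 and 59.1 CPM at 6.5 dpp, all below D4. The 6.5 dpp libraries themselves spread, with CSF replicate 3 at 74.2 CPM of Hk2 and 36.1 CPM of Hk1 while the other 3 read 171 to 206 and 80.4 to 97.2 CPM. With fresh libraries alone, 1 library stood for 6.5 dpp and only Pfkl was called, while Pfkp (adjusted p = 0.0987) and Pkm (0.464) were not. Pkm also lost its call without D4 replicate 3 (0.0578). From D4 to D16, 2 members rose and 3 fell, against 18.4% and 5.48% of all genes. Pfkp (2.96-fold higher, log2 1.57, SE 0.37, adjusted p = 0.00368) and Ldha (2.50-fold higher, log2 1.32, SE 0.40, adjusted p = 0.0226) rose, and Gpi1 (1.63-fold lower, log2 -0.71, SE 0.17, adjusted p = 0.0045), Pfkl (1.86-fold lower, log2 -0.90, SE 0.30, adjusted p = 0.0342) and Aldoa (1.56-fold lower, log2 -0.64, SE 0.18, adjusted p = 0.0149) fell. Without D16 replicate 1 none of these 5 was called (Pfkp 0.0867, Ldha 0.608, Gpi1 0.12, Pfkl 0.464 and Aldoa 0.176 as adjusted p), and without D4 replicate 2 or 3 Ldha, Pfkl and Aldoa were not called. Ldha was not called without D4 replicate 1 either (0.0781), nor Aldoa without D16 replicate 2 (0.0542). From D16 to D30 no member was called in edgeR, at 1.79% of all genes, with 1 member at an unadjusted p under 0.05 (Hk1, log2 1.08, 95% interval 0.09 to 2.07, adjusted p = 0.357) and all 10 CPM ranges overlapping.

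Counted over the list, CPM ranges lay wholly apart for 7 members above and 1 below the control at D4 (all genes 16.2% and 28.7%), for 5 and 2 at D16 (26.8% and 20.8%) and for 4 and 4 at D30 (43.3% and 24.5%). In vivo they did so for none above and 2 below from 6.5 to 10.5 dpp (11.3% and 6.17%), for 3 and 6 over the next step (31.4% and 41.7%) and for 4 and 2 over the last (21.3% and 48.1%). In culture they did so for 4 above and none below from 6.5 dpp to D4 (15.4% and 16.2%), for 3 and 5 from D4 to D16 (27.0% and 26.2%) and for no member from D16 to D30 (7.86% and 7.88%). At the stricter threshold of the study, an adjusted p of at most 0.001 with a log2 fold change of 2 or more in either direction, no member passed at D4 (1.07% of all genes), D16 (1.42%), 10.5 dpp against 6.5 dpp (0.0208%), D16 against D4 (7.86%), D30 against D16 (0.00519%) or for the effect of D16 against D4 (0.431%). It was passed by 2 members at D30 (Hk1 and Pfkl, 21.3% of all genes), 2 at 22.5 against 10.5 dpp (Pfkp and Ldha, 18.4%), 2 at 36.5 against 22.5 dpp (Hk1 and Gpi1, 9.9%), 1 at D4 against 6.5 dpp (Pfkl, 2.41%) and 5 for the effect of D30 against D4 (9.52%).

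Paired isozymes can be read within a library, where depth and scaling cancel. Among hexokinase counts per kilobase, Hk1 made up 25.3% ± 2.97 at 10.5 dpp, 66% ± 16.7 at 22.5 dpp and 97.9% ± 0.0869 at 36.5 dpp (SD, n = 3, 3 and 2). In culture it made up 16.8% ± 2.19 at D4, 35.7% ± 19.8 at D16 and 52.1% ± 13.2 at D30 (n = 3, 2 and 4). The D30 libraries read 65.3%, 60.1%, 36% and 47.1%, all below the 36.5 dpp libraries at 97.9% and 98%. Of the counts of Pfkl and Pfkp per kilobase, Pfkp held 5.71% ± 1.13 at 10.5 dpp, 65.4% ± 10.4 at 22.5 dpp and 82.7% ± 0.396 at 36.5 dpp, against 4.48% ± 0.444, 21.4% ± 9.58 and 19.5% ± 6.78 at D4, D16 and D30. At 22.5 and 36.5 dpp Pfkp was the main subunit of this pair by counts, and at D16 and D30 Pfkl was. Both shares were chosen after the levels had been seen and were not tested. The subunit Pfkm is outside this pair and had mean levels of 75.3 and 57.3 CPM per kb at 22.5 and 36.5 dpp, against 19.2 and 14 for Pfkp. At D16 and D30 it had 44.4 and 47.4, against 30.3 and 40.4 for Pfkl, and at D4 23.6 against 58.3. The shares thus do not describe all phosphofructokinase subunits.

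The germ cell isozyme Pgk2 comes from an autosomal copy of the X-linked Pgk1, and Ldhc from a testis paralog of Ldha. Of Pgk1 and Pgk2 counts per kilobase, Pgk2 held 7.23%, 6.82% and 14.6% in the 3 libraries at 10.5 dpp and 99.12% to 99.67% at 22.5 dpp. In culture it held 2.26% to 2.79% at D4, 98.4% and 92.2% at D16 and 98.8%, 99.01%, 96.7% and 98.4% at D30, against 99.92% and 99.96% at 36.5 dpp. The switch to Pgk2 was thus present in every D16 and D30 library, and its share was below that of each matched in vivo library at all 3 stages. At D4 that share rests on 6, 9 and 12 Pgk2 reads, against 7, 7 and 21 at 10.5 dpp. Pgk1 itself was higher at D4 (log2 1.64), so the lower D4 share does not show less Pgk2. On the log2 scale the ratio of Pgk2 to Pgk1 differed from the control by -1.91 at D4, -2.96 at D16 and -4.81 at D30 (exact two-sided permutation p = 0.1, 0.2 and 0.133, each the smallest these group sizes allow). Pgk1 shares most of its 50-base runs with a pseudogene and Pgk2 shares none, and the part of this in the shares was not tested.

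Ldhc held 4.74% ± 1.09 of Ldha and Ldhc counts per kilobase at 10.5 dpp, 89.7% ± 0.888 at 22.5 dpp and 91.9% ± 1.55 at 36.5 dpp. In culture the share was 3.41% ± 0.706, 86.1% ± 3.89 and 88% ± 2.50 at D4, D16 and D30. The log2 ratio of Ldhc to Ldha differed from the control by -0.49, -0.47 and -0.62 at the 3 stages (exact two-sided permutation p = 0.2, 0.2 and 0.133, with 0.1, 0.2 and 0.133 the smallest possible). Adjusted over the 6 isozyme tests all p-values were 0.2, and none of these designs can reach 0.05.

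**Figure D3:**
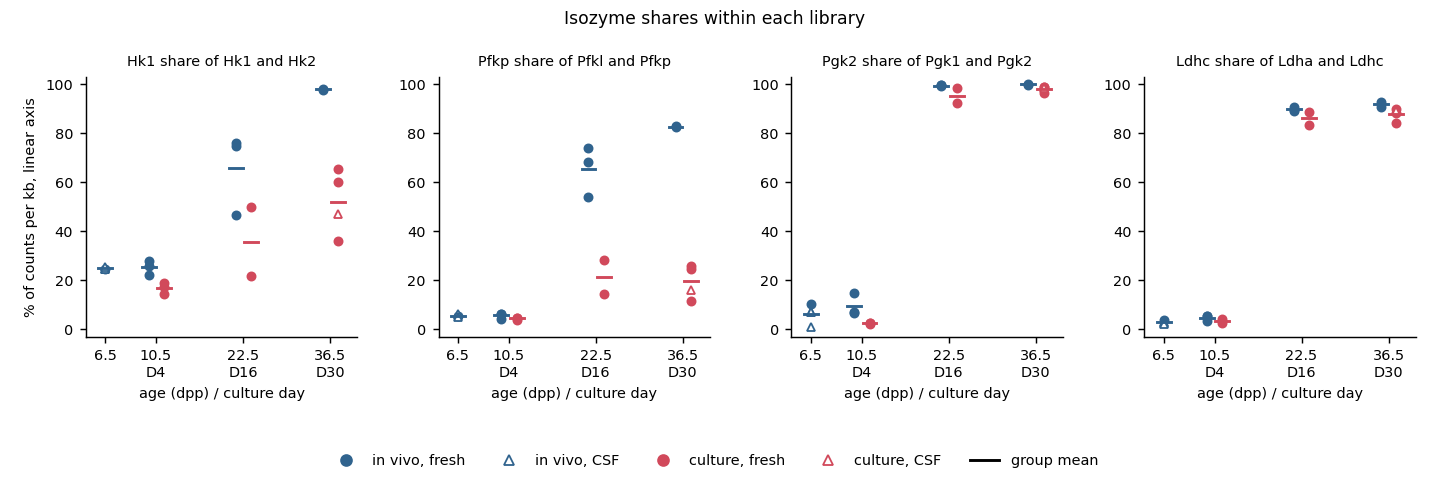
Share of the first-named isozyme in each library, in percent of the counts per kilobase of both genes on a linear axis, by age and culture day (blue in vivo, red culture, triangles CSF, bars group means). Pgk2 and Ldhc come to dominate in culture as in vivo, while the Hk1 and Pfkp shares of D30 stay below those of 36.5 dpp in every library.

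Of 8 germ cell isozymes listed, Ldhal6b had no count in any of the 21 libraries and 7 could be tested. From 10.5 to 22.5 dpp and from D4 to D16, 7 of 7 rose, against 33.6% and 18.4% of all genes. Gapdhs, the glyceraldehyde 3-phosphate dehydrogenase of the sperm tail, read 35, 6.91 and 39.2 CPM at 22.5 dpp, 1313 and 1456 CPM at 36.5 dpp, 28 and 2.29 CPM at D16 and 161, 127, 47.6 and 54.8 CPM at D30. Every D30 library lay below both 36.5 dpp libraries, and Gapdhs was 21.7-fold lower (log2 -4.44, SE 0.73, adjusted p = 5.08e-05). Pgk2 was 7.72-fold lower (log2 -2.95, SE 0.57, adjusted p = 0.000225) at D30, with 271, 366, 91.8 and 318 CPM against 1589 and 1045 CPM, and Ldhc 3.71-fold lower (log2 -1.89, SE 0.45, adjusted p = 0.00139), with 2323, 3158, 806 and 2527 against 6592 and 4069 CPM. At D30, 7 of 7 were lower, against 35% of all genes, and at D16 2 of 7, against 11.8%. Those at D16 were Eno4 (log2 -1.41, SE 0.36, adjusted p = 0.0115) and Pdha2 (log2 -1.09, SE 0.37, adjusted p = 0.038), the latter named after its value was seen. The largest drop at D30 after Gapdhs was in the aldolase copy Aldoart1 (log2 -4.24, SE 0.78, adjusted p = 0.000153). At D4 none was called in either direction, with Pgk2 and the aldolase copies Aldoart1 and Aldoart2 under 1 CPM in every D4 and 10.5 dpp library.

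Of 17 other glycolytic enzymes, 15 could be tested. At D4 3 of these were above the control and none below, at D16 4 above and 2 below, and D30 had 6 each way. Of all genes, 4.92% were higher and 3.18% lower at D4, 14% and 11.8% at D16, and 32.4% and 35% at D30. Among these enzymes Gapdh, Eno1 and Pgam1 share 82.5%, 72.2% and 41.5% of their 50-base runs with other genes, so their counts are uncertain. The part of this in the calls was not tested. Eno2, the enolase of neurons, had the largest positive difference at each stage. It read 24.5, 33.2 and 31 CPM at D4 against 4.45, 5.45 and 4.87 at 10.5 dpp, 16.8 and 23 at D16 against 1.64, 2.98 and 2.31 at 22.5 dpp, and 18.1, 15.1, 16.8 and 6.63 at D30 against 0.624 and 0.566 at 36.5 dpp. Its culture libraries lay above the control in all 3 comparisons, 6.37-fold higher (log2 2.67, SE 0.32, adjusted p = 3.19e-05), 7.78-fold higher (log2 2.96, SE 0.35, adjusted p = 2.09e-05) and 15.3-fold higher (log2 3.94, SE 0.42, adjusted p = 7.17e-07). Ldhd, a lactate dehydrogenase of the D form, was higher at D4 (log2 1.92, SE 0.26, adjusted p = 0.000107). Eno3, the muscle enolase, was lower at D16 (log2 -1.30, SE 0.33, adjusted p = 0.0102).

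Of 21 transporters and regulators, D4 had 5 higher and none lower, D16 had 5 and 4, and D30 had 6 and 8. The shares of all genes beside these counts are those given for the other glycolytic enzymes. Slc2a1, the glucose transporter GLUT1, was 3.20-fold higher (log2 1.68, SE 0.21, adjusted p = 4.48e-05) at D4, 3.10-fold higher (log2 1.63, SE 0.23, adjusted p = 9.87e-05) at D16 and 4.48-fold higher (log2 2.16, SE 0.24, adjusted p = 1.26e-06) at D30. It read 98.7, 119 and 121 CPM at D4 and 33.2, 45.2 and 34 CPM at 10.5 dpp. Pdk1, a kinase that inhibits pyruvate dehydrogenase, was higher at D16 and D30 (log2 1.28, SE 0.28, adjusted p = 0.00398, and log2 2.16, SE 0.30, adjusted p = 9.9e-06). Fbp1, a gluconeogenic phosphatase, was higher at D4 (log2 2.25, SE 0.53, adjusted p = 0.0112) at levels of 3.41, 4.36 and 5.27 CPM. Slc2a3, the glucose transporter GLUT3, was lower at D16 (log2 -1.37, SE 0.38, adjusted p = 0.0152). These lists were written with earlier results of these data known, and their counts describe them.

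Other gene lists also differed between culture and control, not always in the direction of these enzymes. Their part in the differences of the enzymes was not tested. Of 15 HIF targets outside glycolysis, 10 were higher at D4, 13 at D16 and 12 at D30, and none was lower. Of all genes tested, 4.92%, 14% and 32.4% were higher at these stages, and 3.18%, 11.8% and 35% were lower. Their summed level was 1629.7 to 1741 CPM at D4 against 906 to 967 at 10.5 dpp, 1334 to 1570.2 at D16 against 791 to 948 at 22.5 dpp, and 1169 to 1304 at D30 against 412 to 441 at 36.5 dpp. The summed level of the 10 enzymes was 2248 to 2827 CPM at D4 against 1573 to 1729.6 at 10.5 dpp. At D16 it was 2057 to 2315 against 1687 to 2322 at 22.5 dpp, which overlap, and at D30 2115 to 2644 against 3469 to 4989 at 36.5 dpp. Of the 36.5 dpp sums, Hk1 alone held 1193 and 2607 CPM, against 144 to 398 CPM at D30. The D30 difference is thus not spread evenly over the list, in which Pfkl, Hk2 and Pgk1 were higher at D30.

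Spermatid and spermatogonia markers differed most at the last stage. Spermatocyte markers did not, with a median log2 fold change of -1.02 at D16 and -0.46 at D30. The shares of all genes beside these counts are those given with the HIF targets. Of 10 spermatid markers none was called at D4 or D16 and 10 were lower at D30, with summed levels of 516 to 2305 CPM at D30 and 21189.5 to 26843 CPM at 36.5 dpp. Their sum was 12.7 to 172 CPM at D16 and 55.1 to 252 at 22.5 dpp. At D4, where it was 4.71 to 5.19 CPM, the defining markers Prm1, Prm2, Tnp1 and Tnp2 were under 1 CPM in every library. Within D30, fresh replicate 3 had the lowest spermatid marker sum, 516 CPM, together with the lowest Ldha of the group (312 CPM) and its highest Pfkl and Hk2 (366 and 197 CPM). That library also had the highest Gpi1, Aldoa and Pkm (153, 422 and 417 CPM) and the lowest Tpi1 and Pgk1 (131 and 4.38 CPM). The lowest Hk1 and Pfkp were those of the CSF library (144 and 91.8 CPM). These values describe 1 library, and a relation to the markers was not tested. Of 10 spermatocyte markers 4 were higher at D4 (summed 554 to 663 against 323 to 412 CPM), 4 lower at D16 (1575 to 2564 against 3676 to 4109) and 4 lower at D30 (837 to 2466 against 2244 to 2486). Of 10 spermatogonia markers, 1 was higher and 2 lower at D4 (977 to 1075 against 1394 to 1467), 3 higher at D16 (571 to 766 against 322 to 569) and 7 higher at D30 (514 to 753 against 144 to 151).

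Somatic markers moved as well, and their sums are given for D4, D16 and D30, each against its control. The shares of all genes beside these counts are those given with the HIF targets. Of 10 Sertoli markers 1 was higher at D4, 8 higher and 1 lower at D16, and 8 higher at D30 (4812 to 5162 against 3822 to 3970.3, 3428 to 3984 against 1198 to 1955 and 3353 to 4676 against 573 to 589.9 CPM). Of 8 Leydig markers 1 was higher and 3 lower at D4, 1 and 6 at D16, and 1 and 7 at D30 (532 to 835 against 1290.1 to 1470.5, 392 to 532 against 1144 to 1167 and 506 to 906 against 1680.3 to 2075 CPM). Of 6 peritubular myoid markers 1 was lower at D4, none was called at D16, and 4 were higher and 1 lower at D30 (381 to 586 against 863 to 966, 273 to 275 against 308 to 476 and 268 to 500.2 against 353 to 403 CPM). Of 8 macrophage markers 1 was higher and 5 lower at D4, 2 and 1 at D16, and 6 higher at D30 (67.6 to 96.5 against 159 to 219, 443 to 524 against 278 to 394 and 463 to 926 against 123 to 189 CPM), and of 7 endothelial markers 4 were higher at D4, 6 at D16, and 5 higher and 1 lower at D30 (280.1 to 315 against 203 to 237, 275 to 357 against 55.1 to 81.3 and 182 to 243 against 33.8 to 48.1 CPM).

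**Figure D4:**
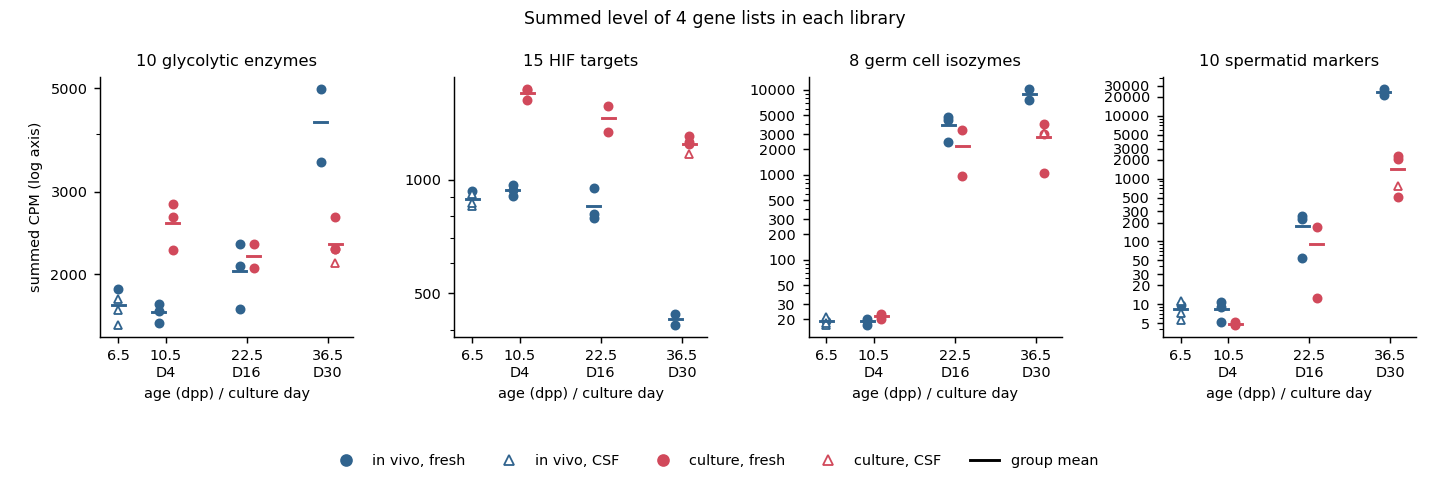
Summed CPM per library of the 10 glycolytic enzymes, 15 HIF targets outside glycolysis, 8 germ cell isozymes and 10 spermatid markers, on log axes, by age (blue) and culture day (red), with triangles for CSF libraries and bars for group means. HIF target sums are higher in every culture library than in its matched control, while the enzyme sum is higher at D4, overlaps at D16 and is lower at D30. Hk1 alone reads 1193 and 2607 CPM in the 36.5 dpp enzyme sums, against 144 to 398 CPM at D30.

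Fresh and CSF libraries were compared within 6.5 dpp and D30, adjusted for stage. No member and no gene was called in edgeR, with 1261 of 19255 genes at an unadjusted p under 0.05 and none of the members among them, and DESeq2 called 4 genes. The members' log2 values ran from -0.59 for Hk1 (95% interval -1.52 to 0.33) to 0.63 for Pgk1 (-0.13 to 1.40), so differences of about that size were not detectable with 1 fresh library at 6.5 dpp and 1 CSF library at D30. Over the 21 libraries the 10 genes did not move as a unit. Of 45 pairs 21 had a positive Pearson r of log2 CPM, with a median of -0.055, and 3 were over 0.8. Outside the glycolysis lists the gene most like each member in its pattern was Ppm1d for Hk1 (r = 0.992), Map4k4 for Hk2 (r = 0.982), Isg20l2 for Gpi1 (r = 0.960), Bcl3 for Pfkl (r = 0.981), Muc1 for Pfkp (r = 0.991), Jup for Aldoa (r = 0.903), Dcun1d1 for Tpi1 (r = 0.898), Msmo1 for Pgk1 (r = 0.954), Cpxm1 for Pkm (r = 0.899) and Lrmda for Ldha (r = 0.983). These are descriptions over libraries of shared stages, and such r values are high wherever genes differ in the same way between the groups.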

How the data were processed

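Libraries of polyadenylated RNA, stranded and single-end, were mapped by the authors to mouse genome mm10 with STAR 2.7.3a and counted per gene with HTSeq 0.12.4 after bcl2fastq 2.17.1.14, and the deposited values are raw counts per NCBI gene id. Of 23 columns 21 were used, and 27373 of 27466 ids matched a symbol in RefSeq, the others holding 0.0207% of counts. Here the counts were tested with edgeR 4.0.16 in R 4.3.3 (TMM factors, filterByExpr, quasi-likelihood F test, 1 fit of 7 age or culture groups, fresh and CSF joined, with no covariate, and a fit with freezing state added for the CSF comparison, Benjamini-Hochberg adjustment over 19255 genes). The method was tested on simulated data with known changes in 200 genes, in equal numbers up and down and at D30 only. Such data hold no broad shift between groups, so they do not probe the choice of scaling. Isozyme ratios used an exact two-sided permutation test. Intervals and levels cover the spread between libraries. Alternatives were RLE factors, library size alone, no filter, a replicate block, DESeq2 1.42.0, fresh libraries, only the groups compared, the omitted 6.5 dpp library put back, the study's stricter threshold and each library left out. The rule for named genes took all 10 enzymes, Pgk2, Ldhc, Gapdhs, and up to 3 called genes a direction of the other glycolysis lists in each culture comparison, of which 1 is not reported here. The enzymes and lists were chosen with earlier results of these data known.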

Additional observations from a re-analysis of the deposited data

Results flagged for a closer look

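At 6.5 dpp the highest of the 4 Aldoa libraries, at 539.8 CPM, stood apart by Dixon's criterion (its gap to the next was 0.833 of the range), which by chance happens in about 1 of 20 groups, and 24 groups were checked. The difference of the culture effect between stages, tested in edgeR as an interaction, passed for the following genes. From D4 to D16 it was -3.05 on the log2 scale for Pfkp and -2.07 for Ldha. From D4 to D30 it was -3.46 for Hk1, -2.76 for Pfkp, -2.72 for Ldha, -2.42 for Tpi1, -2.18 for Gpi1, -0.97 for Aldoa and 1.22 for Pfkl. The library labelled 6.5 dpp fresh replicate 1, used in no comparison, read 194 CPM of Hk1, 199.5 CPM of Pfkl, 187 CPM of Pfkp and 493 CPM of Ldha, each above the range of the 4 libraries used at that age.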

How the results depend on the processing

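Of 50 calls of the 10 enzymes, 22 held under all 29 alternatives that gave a value for each gene. The causes of the changes below were not tested. The number of enzymes called moved by more than 1.5 times as follows. At the study's stricter threshold (adjusted p under 0.001 and log2 beyond 2) it was 0 at D4, 0 at D16, 2 at D30, 2 from 10.5 to 22.5 dpp, 2 from 22.5 to 36.5 dpp, 1 from 6.5 dpp to D4, 0 from D4 to D16 and 0 for the effect of D16 against D4. With the omitted 6.5 dpp library it was 3 at D4, 1 from D4 to D16 and 0 for the effect of D16 against D4, with only the groups compared 2 at D16 and 10 from 10.5 to 22.5 dpp, and with fresh libraries only 1 from 6.5 dpp to D4. Leaving out each library gave 2 to 6 called at D4, 1 to 7 at D16, 6 to 9 at D30, 6 to 8 from 10.5 to 22.5 dpp, 5 to 7 from 22.5 to 36.5 dpp, 2 to 4 from 6.5 dpp to D4, 0 to 6 from D4 to D16, 1 to 2 for the effect of D16 against D4 and 7 to 8 for that of D30 against D4. It moved the log2 difference of Pgk2 to Pgk1 between -2.11 and -1.53 at D4, -4.16 and -1.76 at D16 and -5.32 and -4.31 at D30, and that of Ldhc to Ldha between -0.70 and -0.33, -0.80 and -0.13, and -0.83 and -0.40.

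Same-numbered libraries were not treated as pairs in the reported fit. Of 36 same-numbered pairs, 9 correlated over 0.1 in their deviations from group means (range -0.522 to 0.661). Differently numbered pairs were not set beside them, so these values cannot decide whether replicate numbers pair the libraries. With the replicate block, 6 enzymes were called at D4, 6 at D16 and 9 at D30, 7 in each of the later in vivo steps and 8 for the effect of D30 against D4.

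Values that changed sign were not called in the reported fit, except Aldoa at D30 and Pfkp from 6.5 dpp to D4. With 6.5 dpp fresh replicate 1, the sign turned for Hk1, 10.5 dpp vs 6.5 dpp (-0.40), Hk2, 10.5 dpp vs 6.5 dpp (-0.00154), Gpi1, 10.5 dpp vs 6.5 dpp (0.0284), Pfkl, 10.5 dpp vs 6.5 dpp (-0.24), Pfkp, 10.5 dpp vs 6.5 dpp (-2.06), Pfkp, D4 vs 6.5 dpp (-0.49), Aldoa, 10.5 dpp vs 6.5 dpp (0.0512), Pkm, 10.5 dpp vs 6.5 dpp (0.00365), Ldha, D4 vs 6.5 dpp (-0.0837) and Ldha, CSF vs fresh (-0.52). With fresh libraries only, the sign turned for Hk1, 10.5 dpp vs 6.5 dpp (-0.0968), Hk2, 10.5 dpp vs 6.5 dpp (-0.14), Hk2, D30 vs D16 (0.0473), Gpi1, D30 vs D16 (0.0285), Pfkl, 10.5 dpp vs 6.5 dpp (-0.17) and Pfkp, 10.5 dpp vs 6.5 dpp (-0.10). With replicate block, the sign turned for Hk2, D30 vs D16 (0.11) and Pfkp, 36.5 dpp vs 22.5 dpp (-0.0128). With library size only, the sign turned for Pfkp, 36.5 dpp vs 22.5 dpp (-0.45), Aldoa, D30 vs 36.5 dpp (0.0504), Aldoa, 10.5 dpp vs 6.5 dpp (0.047), Pgk1, 36.5 dpp vs 22.5 dpp (-0.43), Pgk1, culture effect D30 minus D4 (0.63), Pkm, 10.5 dpp vs 6.5 dpp (0.0407), Pkm, 36.5 dpp vs 22.5 dpp (-0.00587) and Pkm, culture effect D30 minus D4 (0.20). With RLE factors, the sign turned for Pkm, D30 vs 36.5 dpp (-0.0731). With DESeq2, the sign turned for Pkm, D30 vs 36.5 dpp (-0.0731). Leaving out 1 library turned the sign of Hk1, 10.5 dpp vs 6.5 dpp (-0.12 to 0.22), Hk1, D4 vs 6.5 dpp (-0.31 to 0.0376), Hk2, 10.5 dpp vs 6.5 dpp (-0.16 to 0.19), Hk2, D30 vs D16 (-0.40 to 0.40), Hk2, culture effect D16 minus D4 (-0.30 to 0.50), Gpi1, D30 vs D16 (-0.16 to 0.0319), Pfkl, 10.5 dpp vs 6.5 dpp (-0.0367 to 0.22), Pfkp, 10.5 dpp vs 6.5 dpp (-0.074 to 0.25), Pfkp, 36.5 dpp vs 22.5 dpp (-0.44 to 0.39), Aldoa, 10.5 dpp vs 6.5 dpp (-0.0622 to 0.0319), Tpi1, D16 vs D4 (-0.34 to 0.38), Tpi1, D30 vs D16 (-0.52 to 0.20), Tpi1, CSF vs fresh (-0.0717 to 0.26), Pgk1, 36.5 dpp vs 22.5 dpp (-0.93 to 0.67), Pgk1, D30 vs D16 (-0.37 to 0.0762), Pgk1, culture effect D16 minus D4 (-0.0946 to 0.35), Pgk1, culture effect D30 minus D4 (-0.71 to 0.89), Pkm, D30 vs 36.5 dpp (-0.075 to 0.46), Pkm, 10.5 dpp vs 6.5 dpp (-0.0636 to 0.0551), Pkm, culture effect D16 minus D4 (-0.00804 to 0.34) and Ldha, D30 vs D16 (-0.34 to 0.83), given as ranges.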
